A study of Homo sapiens with 6 samples.

Results

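The 2 libraries of K562 cells carrying a non-targeting short hairpin RNA (NT) were set against the 4 libraries of K562 clones carrying a hairpin against CDAN1, out of 6 libraries in all. They were chosen by the construct named in the sample titles. K562 is an established human erythroleukaemia line, and bulk RNA sequencing of total RNA gave an estimate of the abundance of each transcript. All 6 cultures were kept under puromycin, which selects for the integrated hairpin construct, so the selection is common to both constructs. The NT line gave 1 library without doxycycline and 1 with doxycycline (1 ug/ml, 4 days), and each of the 2 CDAN1 shRNA clones, c1 and c2, also gave 1 of each. The hairpin is made when doxycycline is present, and the uninduced and induced libraries are named here by that state.

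A short hairpin RNA is cut by DICER1 and loaded into an Argonaute protein, which then binds transcripts that pair with it. A non-targeting hairpin occupies the same machinery without a matching human transcript, and so serves as the control for the hairpin itself. CDAN1 encodes codanin-1, which binds the histone chaperone ASF1, and its inherited mutations cause a congenital dyserythropoietic anaemia. In this design the NT construct is present in 1 line only. A difference found in both NT libraries therefore belongs to that line, and the effect of the construct and the identity of the line cannot be told apart. Each library came from 1 culture, so the p-values reflect the spread among these 6 cultures and nothing wider.

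The libraries held 28318555 to 32352246 estimated reads, the NT libraries being the shallowest at 28650731 uninduced and 28318555 induced. Of 33367 genes, 14075 had enough reads to be tested. Mitochondrial transcripts took 4.03% to 5.72% of the reads of a library, with 5.22% in uninduced NT, inside the range of the other 4 libraries (4.34% to 5.72%), and 4.03% in induced NT, the lowest of the 6. Genes that define K562 were present in every library. GATA1, a master transcription factor of red cells, stood between 313 and 363 CPM (read counts scaled to a common library size, with TMM factors), the fetal globin gene HBG1 between 1840 and 2420 CPM, and the adult globin gene HBB at no more than 1.65 CPM. Of the listed markers of other blood lineages, 12 of 25 for granulocytes and monocytes, 9 of 25 for lymphocytes and 2 of 13 MHC class II genes had enough reads to be tested, and none was called (edgeR). With the clone as a replicate block (a term for each clone, so that the spread within a clone alone sets the error), 2 higher and 0 lower, 2 and 2, and 0 and 0 of them were called in that order. The same block called 12% of all genes tested higher and 12.2% lower.

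The targeted gene was examined first. CDAN1 (ENSG00000140326, chromosome 15) stood at 62.5 CPM in the uninduced and 70.2 CPM in the induced NT library. It stood at 37.0 and 17 CPM in uninduced and induced c1, and at 55.4 and 29.8 CPM in uninduced and induced c2. Both NT libraries lay above all 4 CDAN1 shRNA libraries, and the uninduced clones lay between NT and the induced clones. The log2 fold change of NT against the CDAN1 shRNA libraries was 1.05 ± 0.36 (SE, 2 against 4 libraries) and did not pass the test (adjusted p = 0.25, edgeR's quasi-likelihood test). It passed with the clone as a replicate block (1.07 ± 0.22, adjusted p = 0.0124, edgeR), but not with the clone as a random block (adjusted p = 0.793, limma voom) or with the libraries of each clone summed (adjusted p = 0.992, edgeR). Genes of chromosome 15 as a whole had a median log2 difference of 0.41 (uninduced) and 0.47 (induced) between NT and c1, against −0.06 in both states between NT and c2, and the part of this in the CDAN1 value was not tested.

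NT differed from the CDAN1 shRNA clones in 25 genes, 12 higher and 13 lower in NT (edgeR's quasi-likelihood test with doxycycline as covariate, Benjamini-Hochberg adjusted p under 0.05). These were 0.178% of the 14075 genes tested, 0.0853% in the higher and 0.0924% in the lower direction. For each of the 25, both NT libraries lay outside the range of the 4 other libraries, an order also seen in 4555 (32.4%) of all genes tested, 2261 (16.1%) above and 2294 (16.3%) below. The genes higher in NT included the axon guidance receptor gene ROBO2, the nuclear receptor gene NR5A1, the tetraspanin gene TSPAN6 and the histone deacetylase gene HDAC9. Those lower in NT included LIN28A, an inhibitor of let-7 microRNA processing, the histone chaperone gene NAP1L5, the adhesion gene CEACAM1 and the drug efflux pump gene ABCB1. The absolute log2 fold changes ran from 0.69 to 8.21, with a median of 2.03. Every adjusted p lay between 0.0275 and 0.0498, close to the threshold, and 0 genes were called without any 1 of the 6 libraries (751 to 2183 at an unadjusted p under 0.05, against 2338 with all 6). With the clone as a replicate block edgeR called 3412 genes (24.2%; 1694 higher, or 12%, and 1718 lower, or 12.2%), all 25 among them, while a fit with the clone as a random block (limma voom) called 0 genes, with 1011 at an unadjusted p under 0.05 and a smallest adjusted p of 0.0795.

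**Figure D1:**
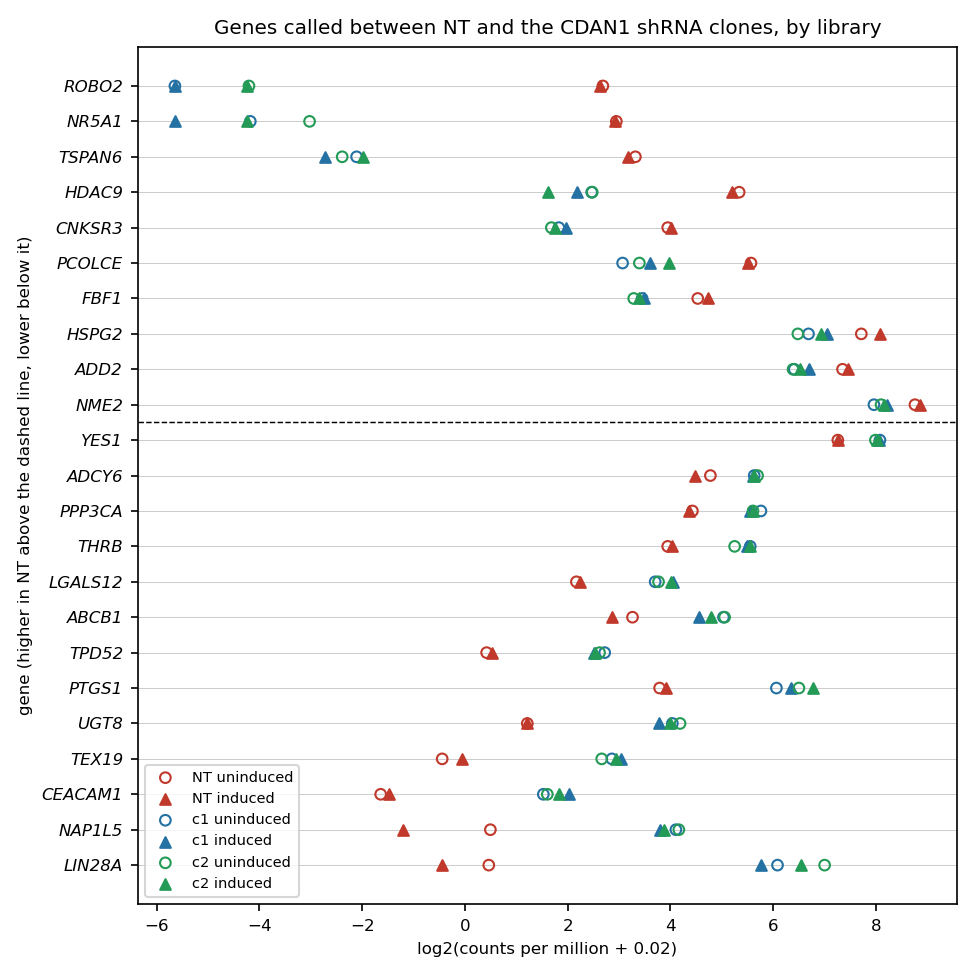
Level of 23 of the 25 called genes (rows) in each of the 6 libraries, as log2(CPM + 0.02) on the horizontal axis; open circles are uninduced and filled triangles induced libraries, red for NT, blue for c1 and green for c2. In every row the 2 NT symbols lie to one side of the other 4, with the widest separations for ROBO2, NR5A1, TSPAN6 and LIN28A.

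A set of 3 genes was close to silent in the CDAN1 shRNA libraries. ROBO2 (ENSG00000185008, chromosome 3, 75906695 to 77649964 on GRCh38), a receptor for SLIT proteins in axon guidance, stood at 6.41 and 6.19 CPM in uninduced and induced NT. It was listed at 0 in both c1 libraries and at 0.0343 and 0.0332 CPM in uninduced and induced c2. The NT libraries together held 335 reads and the 4 others 2 reads, a ratio per read of 370 (95% exact binomial interval 102 to 3070, counting error only). NR5A1 (ENSG00000136931, chromosome 9, 124481236 to 124507430), also called SF-1, a nuclear receptor that directs steroid hormone synthesis in adrenal and gonad, stood at 7.69 and 7.54 CPM in NT. In c1 it stood at 0.0353 and 0 CPM, and in c2 at 0.103 and 0.0332 CPM. Its 405 NT reads against 5 gave a ratio of 179 (95% interval 76.1 to 554).

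TSPAN6 (ENSG00000000003, chromosome X, 100627109 to 100639991), a membrane protein of the tetraspanin family, had the smallest p of all genes. It stood at 9.95 and 9.04 CPM in uninduced and induced NT, at 0.212 and 0.132 CPM in c1 and at 0.171 and 0.232 CPM in c2. The NT libraries were 50.8-fold above the mean of the others, and neither state overlapped. The log2 fold changes were 5.63 ± 0.27 for TSPAN6, 7.41 ± 0.62 for NR5A1 and 8.21 ± 0.64 for ROBO2 (SE, 2 against 4 libraries). The adjusted p was 0.0275, 0.0321 and 0.031 in that order (edgeR).

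The leading transcripts of TSPAN6 and NR5A1 started within 31 bases of a RefSeq start site, so the promoter windows of these 2 genes can be shown, with that of NAP1L5, the nearest case in the opposite direction with an entry. Each window runs from 250 bases before to 50 bases after the RefSeq start (GRCh38.p14), read 5′ to 3′ on the minus strand, and capitals mark CG dinucleotides, the sites at which DNA methylation is placed in mammals.
NR5A1: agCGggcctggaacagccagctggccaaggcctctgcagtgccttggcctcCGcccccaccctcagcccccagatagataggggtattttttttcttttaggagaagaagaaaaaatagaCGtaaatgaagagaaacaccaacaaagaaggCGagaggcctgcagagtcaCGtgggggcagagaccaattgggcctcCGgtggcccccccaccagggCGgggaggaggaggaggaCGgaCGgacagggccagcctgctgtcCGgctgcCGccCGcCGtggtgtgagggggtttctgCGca
TSPAN6: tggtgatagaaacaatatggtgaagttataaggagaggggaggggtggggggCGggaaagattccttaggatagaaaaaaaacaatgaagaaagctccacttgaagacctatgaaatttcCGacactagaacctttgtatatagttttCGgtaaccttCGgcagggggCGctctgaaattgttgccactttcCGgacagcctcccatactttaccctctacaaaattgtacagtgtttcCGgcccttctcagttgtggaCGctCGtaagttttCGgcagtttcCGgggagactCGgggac
NAP1L5: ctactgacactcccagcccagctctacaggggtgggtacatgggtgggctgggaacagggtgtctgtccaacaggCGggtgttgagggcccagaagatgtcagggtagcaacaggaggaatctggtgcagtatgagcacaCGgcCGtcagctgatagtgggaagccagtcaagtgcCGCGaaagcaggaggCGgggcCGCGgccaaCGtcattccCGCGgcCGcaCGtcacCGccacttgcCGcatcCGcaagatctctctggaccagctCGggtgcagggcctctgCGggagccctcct
The windows lie on chromosome 9 from 124507350 to 124507649, on chromosome X from 100636757 to 100637056 and on chromosome 4 from 88697780 to 88698079. They hold 14, 12 and 18 CG dinucleotides. Of all 35116 RefSeq promoter windows of this length, 50.3%, 53.1% and 44.5% hold at least as many, against a median of 14. No methylation was measured in these libraries.

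Among the other genes higher in NT were regulators of chromatin and signalling. HDAC9 (ENSG00000048052, chromosome 7, 18086949 to 19002416), a class IIa histone deacetylase, stood at 40.4 and 36.8 CPM in uninduced and induced NT. It stood at 5.51 and 4.5 CPM in c1 and at 5.55 and 3.05 CPM in c2, and its log2 fold change was 3.08 ± 0.19 (adjusted p = 0.0275, edgeR). Both clones were low in both states, and the NT mean was 8.29-fold theirs. CNKSR3 (ENSG00000153721, chromosome 6, 154387504 to 154510659), a scaffold protein linked to sodium channel control, stood at 15.4 and 16.0 CPM in NT against 3.19 to 3.9 CPM in the other 4 libraries (2.17 ± 0.15, adjusted p = 0.0297, edgeR).

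CNKSR3 also differed in which transcripts carried the signal. The transcript CNKSR3-204 was estimated at 2.25 and 2.89 TPM (a unit scaled for transcript length) in uninduced and induced NT and at 0 in all 4 CDAN1 shRNA libraries. CNKSR3-202 was estimated at 1.71 and 1.38 TPM in NT, at 0.15 TPM in uninduced c1 and at 0 in the other 3. The longest transcript, CNKSR3-205, which starts upstream of both, stood at 0.419 and 0.451 TPM in NT and at 0.168 to 0.201 TPM in the other 4. The transcripts share exons, so these divisions of reads are model estimates, and they were not tested at the transcript level. The windows around the starts of CNKSR3-204, seen in NT alone, and of CNKSR3-205, seen in all 6 libraries, are shown for comparison in the same format, again from the minus strand.
CNKSR3-204: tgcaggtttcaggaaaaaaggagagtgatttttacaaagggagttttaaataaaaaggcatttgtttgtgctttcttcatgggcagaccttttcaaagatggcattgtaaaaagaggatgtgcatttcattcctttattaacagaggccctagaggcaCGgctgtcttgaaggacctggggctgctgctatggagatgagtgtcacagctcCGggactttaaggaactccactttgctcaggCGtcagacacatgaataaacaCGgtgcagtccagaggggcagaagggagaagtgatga
CNKSR3-205: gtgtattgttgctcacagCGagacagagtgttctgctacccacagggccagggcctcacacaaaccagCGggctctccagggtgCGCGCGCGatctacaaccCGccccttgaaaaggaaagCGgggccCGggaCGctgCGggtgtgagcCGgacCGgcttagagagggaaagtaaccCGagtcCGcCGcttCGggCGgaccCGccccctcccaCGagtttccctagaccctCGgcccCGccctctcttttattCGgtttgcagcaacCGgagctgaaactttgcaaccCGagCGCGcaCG
The first window (chromosome 6, 154478442 to 154478741) lies inside the gene and holds 4 CG dinucleotides, and 75.5% of all promoter windows hold at least as many. The second (154510636 to 154510935) lies at the 5′ end of the gene and holds 28, a number reached by 26.2% of all windows. The transcript starts lie 0 and 26 bases from the RefSeq starts.

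The remaining genes higher in NT that are described here had matrix, membrane and centriole roles. PCOLCE, which enhances the cleavage of procollagen, stood at 47.4 and 45.3 CPM in NT and at 8.37 to 15.6 CPM in the others (2.03 ± 0.20, adjusted p = 0.0498, edgeR). HSPG2, the basement membrane proteoglycan perlecan, stood at 210.0 and 271 CPM in NT and at 89.2 to 132 CPM in the others (1.11 ± 0.08). The induced library was the higher one for HSPG2 in NT, c1 and c2 alike. ADD2, the beta subunit of adducin in the red cell membrane skeleton, stood at 163 and 176 CPM in NT against 83.6 to 104 CPM (0.90 ± 0.07). FBF1, a protein of centriole fibres, stood at 23.1 and 26.5 CPM against 9.73 to 11.2 CPM (1.23 ± 0.12).

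NME2, a nucleoside diphosphate kinase, had a small change for a called gene. It stood at 433 and 462 CPM in NT and at 249 to 297 CPM in the others (0.70 ± 0.06). NME2 overlaps the read-through gene NME1-NME2 and resembles NME1, so its share of reads is uncertain. NME1 stood at 0.60 ± 0.07 and was not called (adjusted p = 0.0619, edgeR; 0.00033 with the replicate block). NME2, with CEACAM1 and ADCY6 among the genes lower in NT, falls outside the rule for named genes, and these 3 were named after their values were seen.

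LIN28A had the largest fall among the genes called lower in NT. LIN28A (ENSG00000131914, chromosome 1, 26410778 to 26429722) is an RNA-binding protein of embryonic cells that blocks the maturation of let-7 microRNAs. It stood at 1.36 and 0.713 CPM in uninduced and induced NT, at 67.8 and 54.1 CPM in c1 and at 128 and 93.0 CPM in c2. The lowest CDAN1 shRNA library was far above both NT libraries, and c2 was above c1 in both states. The log2 fold change was −6.39 ± 0.51 (adjusted p = 0.031, edgeR), and the mean of the other 4 libraries was 82.9-fold the NT mean. LIN28B, its paralog, stood at 132 and 119 CPM in NT against 137 to 169 CPM in the others (−0.28 ± 0.11, adjusted p = 0.284, edgeR; 0.00709 with the replicate block). Of the 15 genes of the small RNA machinery, LIN28A was called, 2 (13.3%) lay above and 3 (20%) below all 4 other libraries, against 16.1% and 16.3% of all genes, and the list's median log2 fold change was 0.07. DICER1 stood at 46.5 and 47.5 CPM in NT, inside the range of 36.5 to 57.8 CPM in the others.

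NAP1L5 (ENSG00000177432, chromosome 4, 88695915 to 88697829), an imprinted gene of the nucleosome assembly family expressed from the paternal copy, stood at 1.39 and 0.413 CPM in uninduced and induced NT. It stood at 17.2 and 13.9 CPM in c1 and at 17.9 and 14.6 CPM in c2, close together across the clones. The log2 fold change was −4.24 ± 0.39 (adjusted p = 0.0443, edgeR). Among the 30 tested histone chaperones and CDAN1 partners it was the only one called, with 5 (16.7%) above all 4 other libraries, CDAN1 among them, 6 (20%) below and a median of 0.06. With the replicate block 5 were called higher and 3 lower, against 12% and 12.2% of all genes. ASF1A stood at 64.4 and 56.3 CPM in NT and ASF1B at 78.8 and 90.4 CPM, with log2 fold changes of 0.02 ± 0.12 and 0.11 ± 0.07. C15orf41, which encodes the codanin-1 partner CDIN1, stood at 0.10 ± 0.12. Of the 22 imprinted genes tested, NAP1L5 was called, 3 (13.6%) lay above and 2 (9.09%) below all 4, and the median was 0.01, or 0.18 with the replicate block, which called 6 higher and 1 lower.

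Several genes of adhesion, lipid and germ cell function were also lower in NT. TEX19, a germ cell protein that restrains retrotransposons, stood at 0.716 and 0.938 CPM in NT against 6.31 to 8.14 CPM (−3.15 ± 0.21, adjusted p = 0.0275, edgeR). CEACAM1, a cell adhesion molecule, stood at 0.301 and 0.338 CPM against 2.86 to 4.07 CPM (−3.37 ± 0.28, adjusted p = 0.031). PTGS1, the cyclooxygenase that starts prostaglandin and thromboxane synthesis, stood at 13.8 and 15 CPM in NT, 66.8 and 81.6 CPM in c1 and 90.5 and 109 CPM in c2 (−2.59 ± 0.20, adjusted p = 0.031). All 3 clones had slightly more PTGS1 in the induced library. PLA2G4A, the phospholipase that releases its substrate arachidonic acid, stood at 0.415 and 0.9 CPM in NT against 3.92 to 5.44 CPM and was not called (−2.81 ± 0.40, adjusted p = 0.0903, edgeR, or 0.00103 with the replicate block; chosen after its values were seen).

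UGT8, the enzyme that makes galactosylceramide, stood at 2.3 and 2.29 CPM in NT and at 13.6 to 18.2 CPM in the others (−2.80 ± 0.17, adjusted p = 0.0275, edgeR). Its transcripts did not differ alike. UGT8-201, which starts at the 5′ end of the gene, was estimated at 0.171 and 0.151 TPM in NT and at 2.73 to 4.2 TPM in the others. UGT8-202, from a start further downstream, was estimated at 0.752 and 0.881 TPM in NT and at 1.46 to 2.41 TPM in the others. UGT8-201 thus made 14.2% and 14.6% of the gene's TPM in NT, and 49.2% to 57.4% in the 4 CDAN1 shRNA libraries. The NT shares rest on 16 and 14 estimated reads of UGT8-201. These divisions are model estimates too and were not tested.

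**Figure D2:**
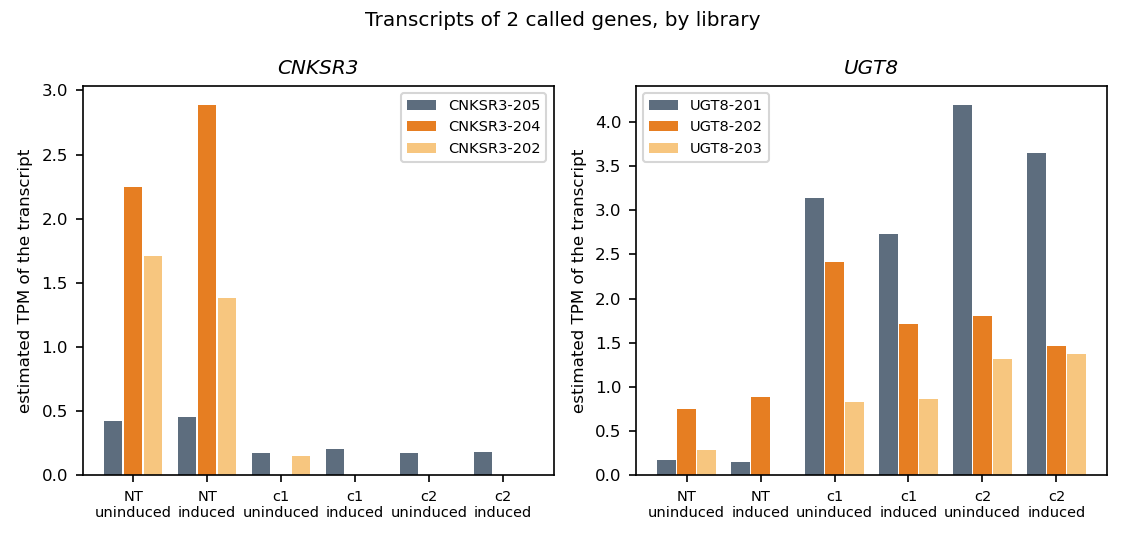
Estimated TPM of the transcripts of CNKSR3 (left) and UGT8 (right) in each of the 6 libraries; each bar is 1 transcript in 1 library, with no replicate error. CNKSR3-204 reaches 2.25 and 2.89 TPM in NT and 0 elsewhere, and UGT8-201 reaches 0.171 and 0.151 TPM in NT against 2.73 to 4.2 TPM elsewhere.

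ABCB1, the P-glycoprotein pump that exports many drugs, stood at 9.57 and 7.28 CPM in NT, at 32.7 and 23.4 CPM in c1 and at 33.2 and 27.5 CPM in c2 (−1.80 ± 0.12, adjusted p = 0.0275, edgeR). The induced library was the lower one in each clone. Of the 17 tested genes of drug transport and detoxification, ABCB1 alone was called, while 7 (41.2%) lay below and 1 above all 4 other libraries, against 16.3% and 16.1% of all genes. The others below were the glutathione transferases GSTM2 (−0.84 ± 0.26), GSTM3 (−0.94 ± 0.21), GSTM4 (−0.50 ± 0.10) and GSTP1 (−0.34 ± 0.16) and the pumps ABCC1 (−0.17 ± 0.11) and ABCC4 (−0.20 ± 0.09). The list's median was −0.34, or −0.20 with the replicate block. That block called 3 of the 17 higher and 6 lower, against 12% and 12.2% of all genes (edgeR). GSTM2 and GSTM4 are close copies between which reads may be divided.

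The last group lower in NT held signalling genes. PPP3CA, the catalytic subunit of calcineurin, stood at 21.5 and 20.6 CPM in NT against 46.5 to 54.2 CPM (−1.23 ± 0.09, adjusted p = 0.0297, edgeR). YES1, a kinase of the SRC family, stood at 153 and 154 CPM against 254 to 270 CPM, the smallest fall at −0.77 ± 0.06. THRB, a thyroid hormone receptor, stood at 15.4 and 16.4 CPM against 38.0 to 47.0 CPM (−1.48 ± 0.12). ADCY6, an adenylyl cyclase, stood at 27.4 and 22.3 CPM against 48.5 to 51.8 CPM (−1.01 ± 0.09), and LGALS12, a galectin, at 4.48 and 4.69 CPM against 13 to 16.6 CPM (−1.68 ± 0.14). TPD52 stood at 1.32 and 1.43 CPM against 5.65 to 6.57 CPM (−2.13 ± 0.20). Its TPM was less even, at 3.63 and 0.911 in uninduced and induced NT against 4.36 to 8.35. The transcript TPD52-228 was estimated at 72.5% of it in uninduced NT, 0% in induced NT and 0% to 63.2% in the others. In CPM, the 4 CDAN1 shRNA libraries lay closer to each other than to NT for each of these 6 genes. The test that called them selects for such closeness, so it is no further result.

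Some genes were read in 1 construct only. TNXB, which encodes the matrix protein tenascin-X, held 0 reads in both NT libraries and stood at 6.61 and 3.47 CPM in c1 and 3.12 and 1.59 CPM in c2. Its 431 reads in the 4 CDAN1 shRNA libraries put it at least 65.0-fold lower in NT (3 reads over the NT group as the floor). It was not called (adjusted p = 0.0897, edgeR), but was called with the replicate block (adjusted p = 0.000183). It shares sequence with the near-identical copy TNXA. AC008537.4, an antisense RNA on chromosome 19, held 80 reads in NT (1.06 and 1.95 CPM) and 0 in the 4 others, at least 59.0-fold higher in NT (3 reads over those 4 as the floor). It was not called either (adjusted p = 0.149, edgeR; 0.00214 with the replicate block), and without a stated strand its reads cannot be told from those of an overlapping gene. In all, 43 of the 14075 tested genes held 0 reads in both NT libraries and 1 held 0 in all 4 others. These counts cannot be compared, since 0 reads in 2 libraries is an easier condition than 0 in 4. A gene read in 1 CDAN1 shRNA clone alone could also enter the 43. By the same rule CT47A12 (18.5 CPM in both c2 libraries) and DNAJC25-GNG10 (9.22 and 10.1 CPM in c1) came first, but each was read in 1 clone only, and both share sequence with copies or overlapping genes.

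A wider set was described by the gap between the nearest NT and CDAN1 shRNA libraries, a measure added after the data were seen. In 183 genes (1.3%) this gap was at least 2-fold, with 83 (0.59%) above and 100 (0.71%) below, and 18 of the 183 were among the 25 called. Among those not called, the transcription factor gene TWIST1 stood at 25.2 CPM in both NT libraries (4.52 ± 0.91, adjusted p = 0.127, edgeR). It stood at 0.177 and 0.331 CPM in c1 and at 1.88 and 1.99 CPM in c2. ITGA4, the integrin alpha 4 subunit, stood at 11.5 and 12.6 CPM in NT against 0.0331 to 0.896 CPM (4.76 ± 1.04, adjusted p = 0.143), and c1 and c2 differed from each other by over their within-clone spread. ARHGAP42, a GTPase-activating protein, stood at 10.6 and 9.68 CPM against 0.0664 to 0.353 CPM and just missed the threshold (5.55 ± 0.54, adjusted p = 0.0502). With the replicate block the 3 were called, at an adjusted p of 3.62e-06 for TWIST1, 9.97e-06 for ITGA4 and 1.1e-05 for ARHGAP42 (edgeR). That block leaves the spread between c1 and c2 out of the error, and the random block called none of the 3.

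In the opposite direction SMAD1, a transducer of BMP signals, stood at 0.151 and 0.15 CPM in NT against 1.24 to 3.09 CPM (−3.85 ± 0.64, adjusted p = 0.103, edgeR). TGFBR2, a TGF-beta receptor, stood at 1.88 and 1.76 CPM against 5.16 to 10.2 CPM (−2.08 ± 0.27, adjusted p = 0.0798). Of the 32 tested TGF-beta and BMP genes 5 (15.6%) lay above and 8 (25%) below all 4, against 16.1% and 16.3% of all genes, and none was called. With the replicate block 5 were called higher and 8 lower, against 12% and 12.2% of all genes. FAS, the death receptor, stood at 0.49 and 0.225 CPM against 2.05 to 4.61 CPM (−3.23 ± 0.63, adjusted p = 0.124). With the replicate block the adjusted p was 0.000629 for SMAD1, 0.000481 for TGFBR2 and 0.00087 for FAS (edgeR). The random block called none of them. These 6 genes were picked from the wider set after their values were seen.

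**Figure D3:**
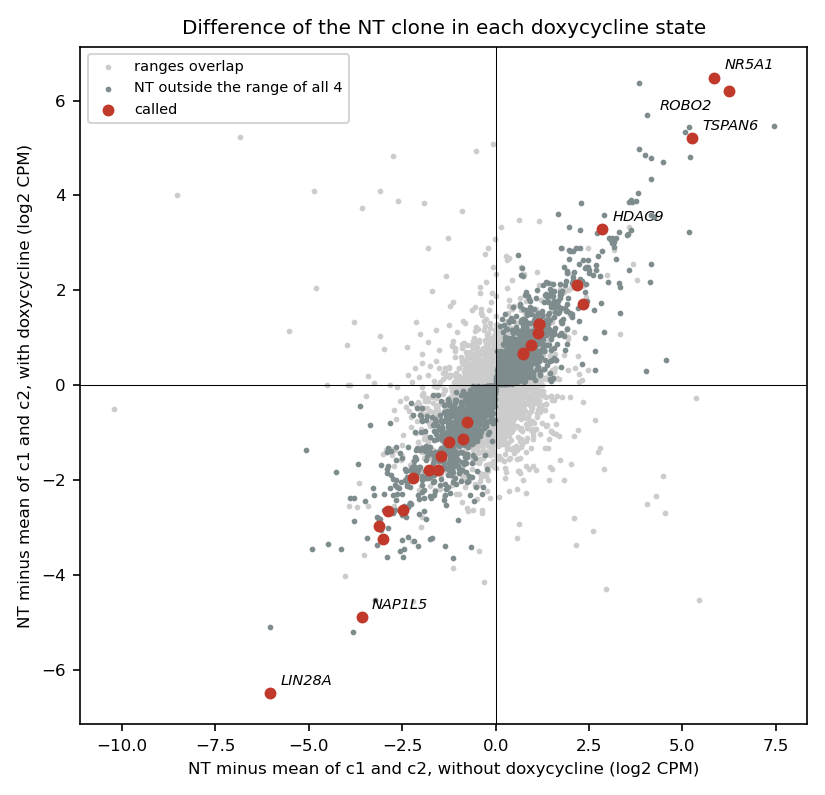
Difference of NT from the mean of c1 and c2 in log2 CPM, without doxycycline (horizontal) and with it (vertical), 1 point for each of the 14075 genes tested; dark grey points are genes whose NT libraries both lie outside the range of the other 4, and red points the 25 called genes. All 25 red points lie in the quadrants where both states have the same sign, which a call over both states together favours.

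The difference between NT and the CDAN1 shRNA clones was also compared between doxycycline states. The interaction of construct with doxycycline was called in 0 of 14075 genes (0%; edgeR's quasi-likelihood test), with 79 at an unadjusted p under 0.05. DESeq2 called 5 genes, voom 0 and edgeR with the clone as a replicate block 19. Among the 25 genes, the difference moved between states by at most 1.3 on the log2 scale, in NAP1L5, from −3.59 uninduced to −4.89 induced. It moved from −6.03 to −6.50 in LIN28A, from 2.33 to 1.72 in PCOLCE and from 5.84 to 6.48 in NR5A1. None of these 4 changes passed the test. For CDAN1, the target of the hairpin in c1 and c2, the difference went from 0.46 uninduced to 1.64 induced and was not called either. The interaction fit has 2 residual degrees of freedom, so 0 calls do not show that the difference was the same in both states.

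Among erythroid genes ADD2 alone was called. Of 10 globin genes tested, 3 (30%) lay above all 4 other libraries and 0 below, against 16.1% and 16.3% of all genes, and the list's median log2 fold change was 0.33, against −0.01 over all genes. The embryonic globin HBE1 stood at 4040 and 4210 CPM in NT, at 3570 and 3210 CPM in c1 and at 2590 and 2850 CPM in c2 (0.43 ± 0.14, adjusted p = 0.223, edgeR; 0.00259 with the replicate block). HBG2 stood at 4620 and 4850 CPM, between c2 (3870 and 4280 CPM) and c1 (5030 and 5170 CPM). Of 31 red cell membrane and blood group genes, 9 (29%) lay above and 2 (6.45%) below, with a median of −0.02. SLC4A1, the band 3 anion exchanger, stood at 21.8 and 20.2 CPM in NT against 10.1 to 14.2 CPM (0.81 ± 0.17, adjusted p = 0.131, edgeR), and RHCE, a Rh antigen gene whose reads may be divided with RHD, at 38.3 and 46.6 CPM against 18.3 to 29.9 CPM (0.85 ± 0.12, adjusted p = 0.0897). Both were picked from the 9 genes above and do not stand for the list, whose median lay near that of all genes. With the replicate block 7 of the globins were called higher and 0 lower, and 9 and 5 of the red cell list, against 12% and 12.2% of all genes. In that fit SLC4A1 had an adjusted p of 0.00189 and RHCE one of 0.000384 (edgeR).

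Of 19 erythroid regulators 6 (31.6%) lay above and 2 (10.5%) below all 4, with a median of 0.08. Of 14 haem synthesis genes 3 (21.4%) lay above and 1 (7.14%) below. Their median was 0.05, with −0.03 and −0.10 against c1 and 0.21 and 0.10 against c2 (uninduced and induced). None of these genes was called, while the replicate block called 8 higher and 2 lower among the regulators and 4 and 1 among the haem genes. Over all genes that block called 12% higher and 12.2% lower. KLF1, an erythroid transcription factor, stood at 211 and 235 CPM in NT against 161 to 210.0 CPM (0.35 ± 0.10, adjusted p = 0.19, edgeR; 0.00715 with the replicate block). GATA1 stood at −0.05 ± 0.08. The 20 megakaryocyte and platelet genes gave no common value, since their median was 0.79 and 1.06 against c1 and −1.60 and −1.89 against c2, uninduced and induced. Of these, 1 (5%) lay above and 3 (15%) below all 4, and none was called, or 2 higher and 6 lower with the replicate block.

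Lists of stress, growth and lipid genes were read in the same way, against the 16.1% of all genes above and 16.3% below. Of 24 genes of the cholesterol list, 7 (29.2%) lay above and 2 (8.33%) below all 4, and 1 was called higher. FDPS, an enzyme of the mevalonate pathway, stood at 0.41 ± 0.06 (adjusted p = 0.0828, edgeR; 0.000785 with the replicate block), while HMGCS1, which acts earlier in the pathway, stood at −0.82 ± 0.28. Of 22 p53 target genes 8 (36.4%) lay above and 3 (13.6%) below, the former including CDKN1A, the cell cycle inhibitor p21, at 66.7 and 64.2 CPM in NT against 32.0 to 43.2 CPM (0.74 ± 0.13, adjusted p = 0.112, edgeR; 0.00132 with the replicate block). CDKN1A was picked from the higher side. A gap of at least 2-fold was found for 0 p53 targets above and for 1 below. Of 39 genes of the BCR-ABL axis, the fusion kinase pathway of K562, 11 (28.2%) lay above and 6 (15.4%) below. The adaptor GRB2 stood at 0.49 ± 0.07 (adjusted p = 0.0908, edgeR; 0.000384 with the replicate block) and ABL1 at −0.02 ± 0.08. No p53 target and no gene of the BCR-ABL axis was called. With the replicate block 6 genes were called higher and 1 lower in the cholesterol list, 7 and 2 among the p53 targets and 11 and 5 in the BCR-ABL axis. Over all genes that block called 12% higher and 12.2% lower.

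Of 28 interferon response genes 0 lay above and 8 (28.6%) below all 4, against 16.1% and 16.3% of all genes, with none called and a median of −0.02. The replicate block called 3 higher and 6 lower, against 12% and 12.2% of all genes, and turned the median to 0.04. MX2 stood at 0.377 and 0.488 CPM in NT, at 1.13 and 1.06 CPM in c1 and at 13.1 and 13.4 CPM in c2. The gap between c2 and c1 was larger than that between c1 and NT. Of 34 genes of G2 and M phase 1 (2.94%) lay above and 7 (20.6%) below, with a median of −0.06, and of 36 replication genes 3 (8.33%) lay above and 0 below. None of the genes of these 2 lists was called, or 0 higher and 6 lower, and 1 and 2, with the replicate block. Of 45 integrin and matrix genes, HSPG2 alone was called, and 6 (13.3%) lay above and 9 (20%) below all 4, with 8 called higher and 11 lower with the replicate block. The gene examples given for these lists were picked after their values were seen, except those called.

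**Figure D4:**
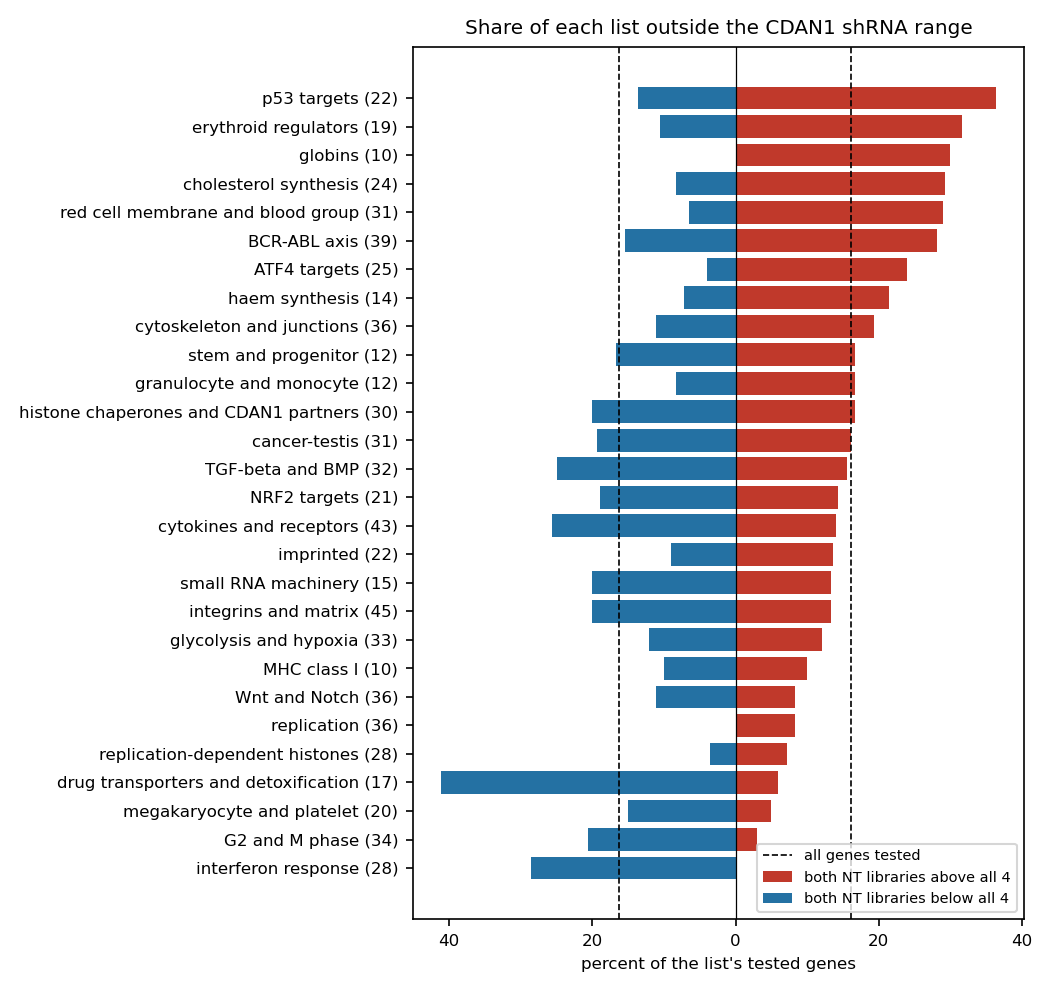
Share of the tested genes of each list (number in brackets, lists with at least 10) whose 2 NT libraries lie above (red, to the right) or below (blue, to the left) all 4 CDAN1 shRNA libraries, in percent; dashed lines mark all genes tested, at 16.1% and 16.3%. Drug transport and detoxification reaches furthest below at 41.2%, and p53 targets furthest above at 36.4%.

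The genes set apart in NT were unevenly spread over the genome. On chromosome 17, 242 of 802 genes (30.2%) lay above all 4 CDAN1 shRNA libraries and 12.3% below, against 16.1% and 16.3% of all genes. In contrast, 25.6% of the genes of chromosome X, 25.2% of chromosome 7 and 24.2% of chromosome 4 lay below, against 16.3% of all genes. The genes were also taken in windows of 25 neighbours, 552 in all, with positions from GENCODE 29 on GRCh38. Of the 3 highest windows all lay next to each other on the long arm of chromosome 17, with medians of 0.58, 0.48 and 0.45, and FBF1 was the one called gene within them.

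Runs of at least 3 neighbouring windows with a median past 0.25 on the same side, a rule set after the values were seen, were found in 3 places. This rule picks windows by their medians, so the shares, signs and medians inside a run follow in part from it. They are given as description, and so is the contrast with the rest of the chromosome. The run on chromosome 17 covered 7 windows and 22.4 Mb (55750979 to 78173527). Of its 175 genes, 122 (69.7%) lay above and 3 below all 4, and 158 had a positive log2 fold change, with a median of 0.42, or 1.33-fold. The median was 0.48 against c1 and 0.41 against c2 uninduced, and 0.49 and 0.39 induced, while c1 and c2 differed by −0.09 and −0.10. Of the other 627 genes of the chromosome, 19.1% lay above and 15.3% below, with a median of 0.02. GRB2 lies inside this run.

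The run on chromosome X covered 4 windows (110358816 to 150673322), with 49 of 100 genes below and 5 above all 4 and a median of −0.34. Its medians lay between −0.37 and −0.21 in the 4 comparisons of NT with c1 and c2. Of the other 432 genes of chromosome X, 20.1% lay below and 9.49% above, with a median of −0.08. The run on chromosome 7 covered 3 windows (142871203 to 157417439), with 41 of 75 genes (54.7%) below and 1 above and a median of −0.29. Of the other 630 genes of chromosome 7, 21.7% lay below and 9.21% above, with a median of −0.08. The 2 lowest windows lay outside these runs, on chromosome 4 (49579833 to 56503681, 16 of 25 genes below, median −0.51) and on chromosome 17 (28719393 to 30637466, 16 of 25 below, median −0.45). They were picked by these medians, and 16.3% of all genes lay below. In these windows c1 also lay below c2, by −0.26 and −0.28 on chromosome 4 and by −0.23 and −0.20 on chromosome 17 (uninduced and induced). On chromosome 4 NT differed by −0.37 and −0.21 from c1 and by −0.61 and −0.60 from c2. No gene was called in these 2 windows or in the runs on X and 7, and 1 was called in the run on chromosome 17. The replicate block called 117 genes higher and 1 lower in the run on chromosome 17, 5 and 49 on X, 1 and 40 on 7, and 0 and 15 in the window on chromosome 4 and 0 and 17 in that on chromosome 17 (edgeR). Over all genes that block called 12% higher and 12.2% lower.

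**Figure D5:**
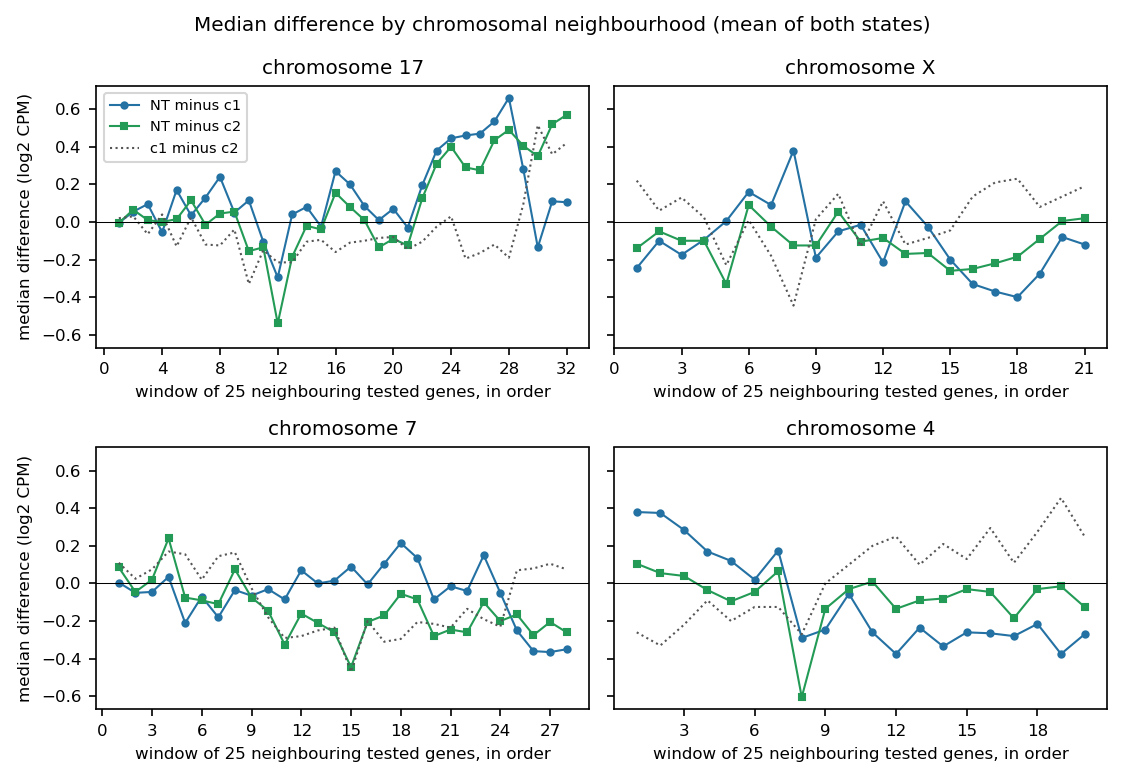
Median difference in log2 CPM for each window of 25 neighbouring genes along chromosomes 17, X, 7 and 4, averaged over both states; blue circles show NT minus c1, green squares NT minus c2 and the dotted line c1 minus c2. On chromosome 17 windows 23 to 29 lie above 0 in both comparisons, and window 12 below.

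The same fit was made with each of the other clones in the place of NT. Clone c1 against the rest had 472 called genes (161 higher, 311 lower) and clone c2 293 (218 higher, 75 lower), against 25 for NT. At an unadjusted p under 0.05 there were 3178 genes for c1, 2251 for c2 and 2338 for NT, so by that count NT lay above c2. Both libraries of c1 lay outside the range of the other 4 in 35.6% of genes, those of c2 in 30.7% and those of NT in 32.4%. A gap of at least 2-fold was found in 295 genes for c1 and 443 for c2, against 183 for NT. These comparisons share all 6 libraries, so their counts are not independent. NT had the lowest of the 3 counts for calls and for the gap, and the middle one for the order of the libraries and the unadjusted p. Between clones, the correlation across genes of log2 CPM was 0.966 and 0.969 for NT with c1, 0.961 and 0.963 for NT with c2, and 0.957 and 0.958 for c1 with c2 (uninduced and induced, as a description over 14075 genes).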

How the data were processed

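Salmon 1.5.2 and the build GRCh37 (hg19) were used, per the submitters' processing notes. For each of 167268 transcripts the authors deposited an estimated count, which need not be whole, and a TPM value, per the file headers. Annotation, trimming and strand: not given in the sources used here. By identifier, 151039 transcripts (90.3%) matched GENCODE release 29, which lies on GRCh38 and gave names and positions. Estimated counts of a gene's transcripts were added up and the sum rounded. The unmatched transcripts, holding 6.23% to 6.5% of a library's reads, were left out. Groups came from the sample titles, which call the second CDAN1 clone c2 where its file names carry C3.

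The main test was edgeR 4.0.16 (quasi-likelihood, two-sided, TMM, filterByExpr with a minimum count of 10, Benjamini-Hochberg threshold 0.05) in R 4.3.3, with terms for doxycycline and construct. It was also run on simulated counts, drawn independently for each library. These held no spread between clones, so they cannot show how the test behaves with 1 NT line. log2 CPM used a prior count of 2. DESeq2 1.42.0, limma 3.58.1 (voom), other scalings, filters, a transcript length offset and leaving out each library were alternatives. Each clone gave an uninduced and an induced library, so the clone pairs them. The paired libraries deviated alike from the mean of their state (correlation 0.608, 0.679 and 0.741, in the order NT, c1, c2). The clone was also fitted as a replicate block, in edgeR as a fixed term and in voom as a random one. NT is 1 whole clone, so the contrast lies between clones. The fixed term leaves the spread between clones out of the error, so its 3412 calls do not allow for this correlation. The random block uses it (consensus 0.607) and called 0 genes. Values with the replicate block in edgeR are given where it changes a call. The members and the gene lists were chosen with earlier results of these data known.

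Named genes were, among protein-coding called genes with at least 5 CPM in the higher group, up to 10 with the largest change in each direction, the 5 called genes of smallest p in each direction, up to 3 called genes of each list, up to 3 genes with 0 reads in a construct, called genes of the outermost windows, and CDAN1. Promoters came from RefSeq (GRCh38.p14), in which 17 of the 25 called genes had an entry. Intervals and floors cover counting error only. Some genes are not reported here.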

Additional observations from a re-analysis of the deposited data

How the results depend on the processing

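The count of 25 called genes (edgeR) depended on how the clone was treated. With the clone as a replicate block the fit called 3412 genes, 2645 of them set apart in both states, and all 25 kept their call. With the clone as a random replicate block (voom) or with each clone's libraries summed (1 against 2) it called 0, with 1011 and 517 genes at an unadjusted p under 0.05. DESeq2 called 1016 (996 set apart in both states, all 25 among them). Without a doxycycline term 170 were called, and with unmatched transcripts kept 11, of which 9 are among the 25. Voom called 25 genes (20 shared), and the other scalings, filters and the length offset gave 19 to 24. Leaving out any 1 library gave 0 to 0 calls, and the uninduced or induced libraries alone, added after the data were seen, gave 0 (501 and 494 at an unadjusted p under 0.05). The change of the difference with doxycycline gave 19 calls with the replicate block and 5 with DESeq2, against 0. The 183 genes with a gap of at least 2-fold became 212 to 311 when 1 library was left out, with 297 without uninduced NT and 311 without induced NT. Leaving out a library can only keep or widen a gap, so this count could not fall. Of 420 alternative values of the called named genes 236 lost the call and 0 changed direction. Of 100 for the 5 other named genes 8 gained a call, 3 of them with the replicate block (CDAN1, TNXB and AC008537.4). Of 120 alternative list medians 9 moved by more than the spread of the 4 comparisons between libraries, and 8 changed sign, from −0.07 to 0.03 (granulocyte and monocyte), −0.02 to 0.04 (interferon response), −0.02 to 0.07 (cancer-testis) and −0.03 to 0.12 (cytoskeleton and junctions) with the replicate block, and in the same 4 lists with the random block. Fewer samples or degrees of freedom enter the clone sums, single states and left-out libraries. For the other settings the cause was not tested.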
